A study of Mus musculus with 27 samples.

Results

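Yap1, Wwtr1 (which encodes TAZ), the TEAD factors Tead1 to Tead4 and the target genes Ctgf, Cyr61, Amotl2 and Crim1 were all detected in B16 melanoma cells, and the authors' mean normalized count placed Yap1 highest and Tead3 lowest. Each of 3 deposited tables lists 23420 genes, and these 10 are the rows whose symbol is on a list of YAP, TEAD and target genes. No measured value enters that rule, but the list was chosen with earlier results of these data known. The values are levels averaged over libraries and hold no response to Tbx2 depletion, because the tables pair this mean only with columns of the authors' own comparison, which were not used here. A library is the sequenced RNA of 1 sample, and a normalized count is the number of reads of a gene after division by a factor for the size of its library.

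B16 is a mouse melanoma cell line. The study compared the parental B16 line with its clones 2 and 9, each 1 clone in which the endogenous Tbx2 gene was edited to carry 3 copies of an HA tag, and each line was left untransfected, transfected with control siRNA or transfected with siRNA against Tbx2, a T-box transcription factor. There were 27 samples in 9 groups of 3, of which 18 were transfected for 48 h and 9 were not transfected. RNA was read from the 3′ ends of transcripts. For each gene the 3 tables gave exactly 1 mean (largest difference 0), which therefore spans more than 1 line. The libraries behind it are not named by any source used here. Neither the spread between libraries nor the depth of a library can be had from a mean, so no value here carries an error and no difference between genes was tested.

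YAP and TAZ are coactivators without a DNA-binding domain of their own, and they act on genes through the TEAD factors, which bind DNA. The kinases of the Hippo pathway phosphorylate YAP and TAZ and thereby keep them out of the nucleus, so the activity of the pair is set largely at the protein level and an mRNA level is not a measure of it. Ctgf and Cyr61 are the genes most often read as targets of the YAP and TEAD complex, and Amotl2 encodes an angiomotin that binds YAP and restrains it.

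The coactivators differed in level. Yap1 had the authors' mean of 906 normalized counts, rank 844 of the 23420 genes, and 96.0% of the 20896 genes with a mean above 0 lay below it. Wwtr1 had the authors' mean of 175 normalized counts, with 80.0% of those genes below it. The ratio of the means was 5.17, and Yap1 made up 83.8% of the summed mean of the pair. Of the summed means of all genes, Yap1 made up 0.0234% and Wwtr1 0.00452%. Yap1 lies on chromosome 9 of GRCm38 from 7931999 to 8004638, and Wwtr1 on chromosome 3 from 57455644 to 57575910.

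Among the TEAD factors, Tead1 and Tead2 had nearly equal means and Tead3 was the lowest of the 10 genes. The authors' mean was 206 normalized counts for Tead1, 200.1 for Tead2, 60.9 for Tead4 and 11.3 for Tead3. Tead1 thus made up 43.1% of the summed mean of the family, Tead2 41.8%, Tead4 12.7% and Tead3 2.37%. The ratio of Tead1 to Tead2 was 1.03, and with no spread over libraries their order is not established. Tead1 exceeded Tead4 by a factor of 3.38 and Tead3 by a factor of 18.2. A kit that reads 3′ ends yields counts that do not scale with the length of a transcript, so these shares were taken without a length correction. When each mean was divided by the length of the longest annotated transcript, which is 9964 bases for Tead1 and 3396 bases for Tead2, the share of Tead1 was 19.99% of the family and that of Tead2 was 56.9%. The summed mean of Yap1 and Wwtr1, 1082 normalized counts, was 2.26 times that of the 4 TEAD factors, 479.

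The 4 target genes lay below Yap1 and above Tead4. Amotl2 had the authors' mean of 341 normalized counts, second to Yap1 among the 10 genes. Cyr61, a secreted matricellular protein of the CCN family that is now named Ccn1, had 254, and Ctgf, its relative that is now named Ccn2, had 182. Crim1, a transmembrane protein with cysteine-rich repeats that binds BMPs, had 127. The ratio of Cyr61 to Ctgf was 1.39 and that of Amotl2 to Crim1 was 2.68. The percentages of genes with a mean above 0 that lay below them were 88.4 for Amotl2, 84.9 for Cyr61, 80.5 for Ctgf and 75.3 for Crim1. Among genes with a mean of 10 or more the percentages were 76.1 for Amotl2, 68.9 for Cyr61, 59.8 for Ctgf and 49.0 for Crim1.

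**Figure D1:**
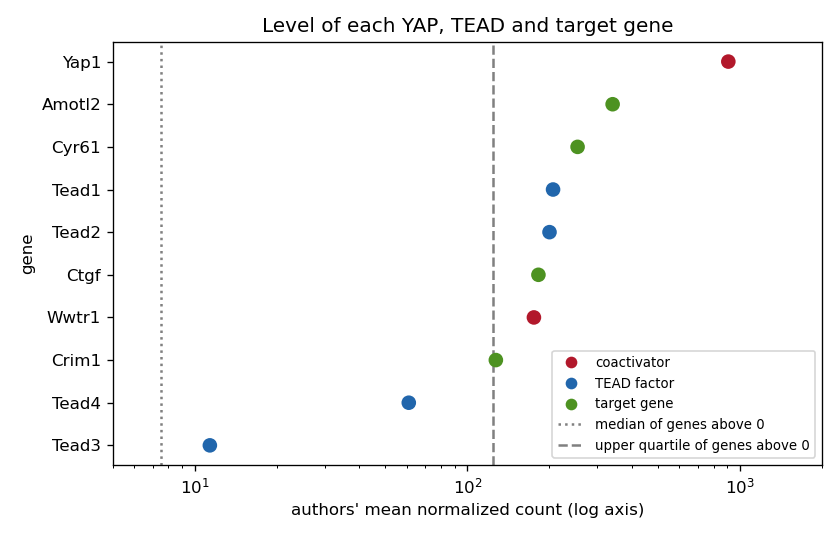
Authors' mean normalized count of each of the 10 genes on a log axis, 1 point per gene, with the median and the upper quartile of the genes with a mean above 0 as vertical lines. Tead3 at 11.3 and Tead4 at 60.9 are the points left of the upper quartile of 124, and Yap1 at 906 stands to the right of the rest.

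As a group, the 10 genes had a median of 191 normalized counts, and 8 of them exceeded the upper quartile of the genes with a mean above 0, which was 124. Among the 10121 genes with a mean of 10 or more, only 2, Yap1 and Amotl2, exceeded the upper quartile. Of all 23420 genes, 5910 (25.2%) had a mean of 100 or more, as did 8 of the 10 (all but Tead3 and Tead4). The median of the genes with a mean above 0 was 7.48, and all 10 exceeded it, Tead3 by a factor of 1.52. Wwtr1, Ctgf, Tead2 and Tead1 lay next to each other between 175 and 206, and without a spread their order is not established either. Tbx2 itself, on chromosome 11, had the authors' mean of 189.7 normalized counts, between Ctgf and Tead2. The mean comes from a fit that compared Tbx2 with control siRNA, so libraries with Tbx2 siRNA enter it. It therefore cannot be read as the level of Tbx2 in undepleted cells.

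Most genes of the Hippo pathway upstream of YAP were detected as well. Of 20 kinases and regulators, 18 had a mean of 10 or more, with a median of 215 normalized counts, beside 10121 of all 23420 genes and a median of 2.65. The highest were Amotl1, an angiomotin, at 1605, Limd1, a LIM protein that restrains the LATS kinases, at 645, and Nf2, the tumor suppressor merlin that acts upstream of them, at 644. The lowest were Mob1b at 28.3, Mob1a at 7.69, both of them cofactors of the LATS kinases, and Wwc1, the scaffold KIBRA, at 3.43. Among the VGLL proteins, which compete with YAP and TAZ for the TEAD factors, Vgll3 had 795 normalized counts and Vgll4 had 49.0. Vgll2 at 0.319 and Vgll1 at 0.027 were near 0.

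Further genes often listed as YAP targets were unevenly represented. Of 20 such genes, 13 had a mean of 10 or more and the median was 43.8 normalized counts, beside 10121 of all 23420 genes and a median of 2.65. Lats2 and Ptpn14 also stand in the list of regulators. The highest were Birc5, the mitotic regulator survivin, at 2922, Ptpn14, a phosphatase that binds YAP, at 417, and Asap1, a GTPase-activating protein for ARF, at 300.4. The lowest were Fosl1, an AP-1 factor, at 0.133, Igfbp3, which binds insulin-like growth factors, at 0.126, and Nt5e, the ectonucleotidase CD73, at 0.052. Ankrd1, a target often read beside Ctgf and Cyr61 and named here although the rule for names does not take it, had a mean of 2.29, below the lowest of the 10 genes.

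**Figure D2:**
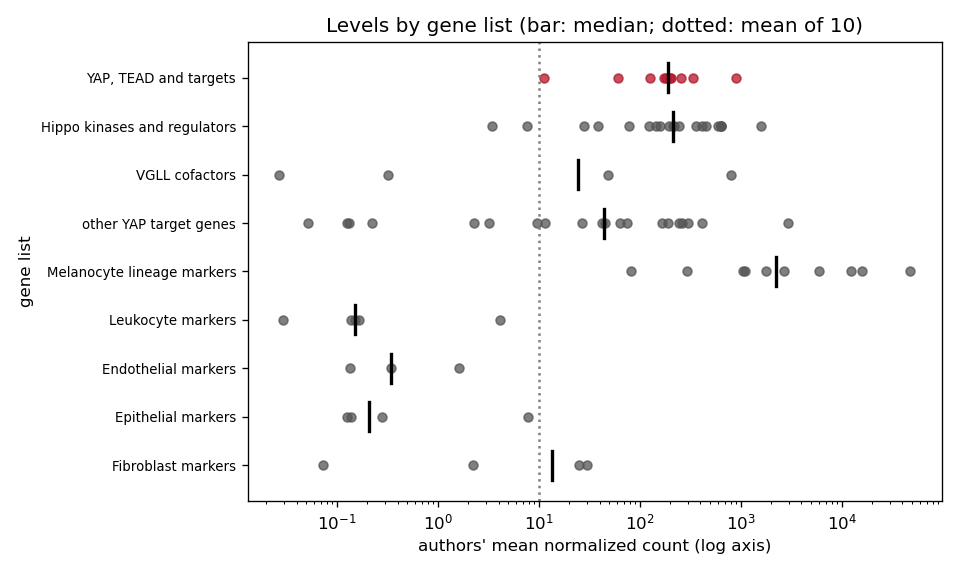
Authors' mean normalized count on a log axis for the 10 genes and for each list of pathway genes and cell type markers, 1 point per gene, with a black bar at the median of a list and a dotted line at a mean of 10. The 10 genes and the Hippo regulators have medians of 191 and 215, the melanocyte markers reach 48045, and the leukocyte, endothelial and epithelial markers lie under 10.

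The tables carried the markers of the labelled cells. All 10 genes of the melanocyte lineage had a mean of 10 or more, from 82.8 for Gpr143 to 48045 for Dct. None of 5 leukocyte, 3 endothelial and 4 epithelial markers reached a mean of 10. The highest of these were Cdh1 at 7.74 and Lyz2 at 4.16, while Ptprc had 0.029 and Epcam 0.278. Of 4 fibroblast markers, Col1a2 had 30.1 and Col1a1 24.9, while Pdgfra had 2.23 and Dcn 0.073. These markers are means over the same libraries, so they do not tell whether 1 group differed from another.

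Promoter sequence was examined because TEAD factors bind DNA and the targets are read through it. Windows of 300 bases from RefSeq (GRCm38.p6), 250 before to 50 after an annotated start, were held for 7 of the 10 genes in 10 windows, and those of Ctgf, Tead1 and Tead4 were not used here. The TEAD motif GGAATG, searched on both strands, occurred in windows of 6 of the 7 genes, beside 16.6% of 27025 genes and 14.7% of 32851 windows with RefSeq sequence. The gene without a match was Tead2. Both windows of Wwtr1 overlap and hold the same match, and some windows of Tead3 overlap too. The following matches are given because they are the ones nearest to a start in each gene before that start. Each is written along the strand of the gene from 5′ to 3′, with the motif, or its complement CATTCC, in capitals. Only the nearest match is in capitals, and the Tead3 stretch holds another CATTCC in lower case.
Cyr61, chr3:145650063-145650108, minus strand: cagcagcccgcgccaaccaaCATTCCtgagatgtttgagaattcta
Amotl2, chr9:102717719-102717764, plus strand: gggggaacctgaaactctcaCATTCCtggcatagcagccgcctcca
Crim1, chr17:78200149-78200194, plus strand: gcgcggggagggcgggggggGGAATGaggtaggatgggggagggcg
Yap1, chr9:8004712-8004757, minus strand: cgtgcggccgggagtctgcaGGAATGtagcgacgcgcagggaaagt
Wwtr1, chr3:57576021-57576066, minus strand: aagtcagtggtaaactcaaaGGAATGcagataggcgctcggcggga
Tead3, chr17:28350689-28350734, minus strand: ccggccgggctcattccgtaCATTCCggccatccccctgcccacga

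The match began 65 bases before the start used in Amotl2, 79 in Crim1, 103 in Cyr61 and 141 in Yap1. In Wwtr1 it began 136 or 170 bases before, depending on the start, and Tead3, whose windows cover 3 starts, held 4 separate matches, with the one shown 114 bases before a start. The start used for Amotl2 lies inside the gene, which begins at 102717091. Its match, from 102717739 to 102717744, is therefore within the gene. The Tead3 match shown also lies within its gene, which ends at 28350805 and is read from there on the minus strand. The longer motif GGAATGT, which contains GGAATG and was searched on both strands, occurred in 4 of the 7 genes (Cyr61, Yap1, Amotl2 and Tead3), beside 4.47% of all genes. Within the 100 bases before a start, 2 genes, Amotl2 and Crim1, held GGAATG, beside 5.55% of all genes. The content of G and C had a median of 68.2% in the 10 windows, beside 52.7% over all windows, and the window of Cyr61 had the lowest, 57%. A match of letters is not a bound site, and the binding of TEAD factors was not measured in these samples.

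The T-element GGTGTGA, part of the site that T-box factors recognize, was found on neither strand in any window of the 7 genes, beside 4.60% of all genes. In the paper, the motif close to the T-element at sites bound by Tbx2 begins with G or A. The form with A, AGTGTGA, was not searched, and it occurs in a Tead3 window. Other motifs that the paper reports at such sites include a TEAD motif and an E-box that contains CACGTG. The E-box CACGTG, a palindrome that reads the same on both strands, was found in 1 gene, Yap1, beside 8.09% of all genes. It began 163 bases before the start, upstream of the TEAD motif, and is given in capitals because it lies close to that motif.
Yap1, chr9:8004734-8004779, minus strand: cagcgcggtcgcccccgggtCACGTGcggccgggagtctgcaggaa

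**Figure D3:**
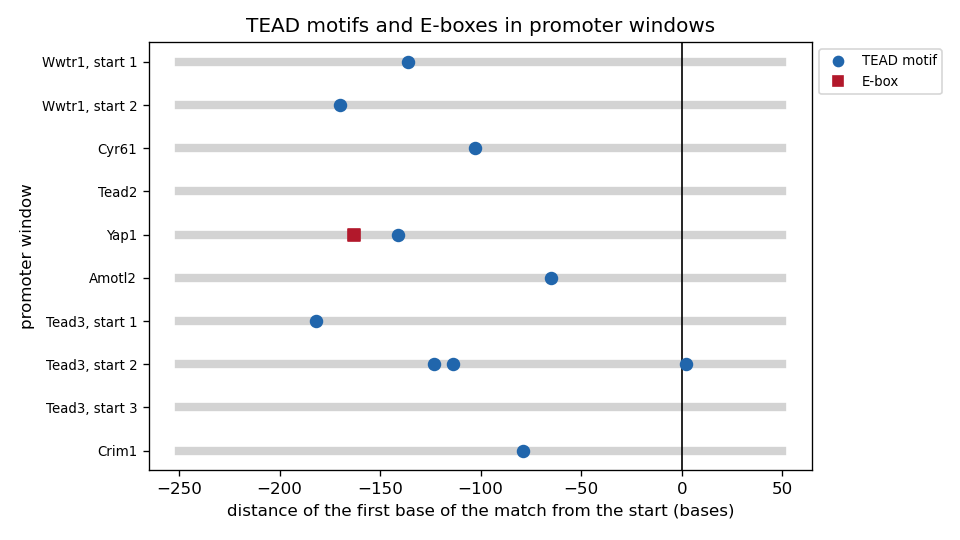
Positions of the TEAD motif GGAATG (circles) and the E-box CACGTG (square) in the 10 promoter windows of 7 genes, as the distance in bases of the first base of each match from the annotated start at 0, with a grey bar for each window from 250 bases before to 50 after. All matches of Amotl2, Crim1, Cyr61, Yap1 and Wwtr1 lie between 65 and 170 bases before a start, and Tead2 has none.

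An siRNA can also act on transcripts that match bases 2 to 8 of its guide strand, its seed, so the 3′ UTRs of the 10 genes were searched for that site. The guide of Tbx2 siRNA number 06, which the study names for parental B16 cells, is shown with the seed in capitals. The number used in the clones was not settled from the sources used here.
Tbx2 siRNA number 06, guide: aGAAAUUUgcaucaaaucc
The complement of the seed, AAATTTC, was searched on the transcript strand of the longest 3′ UTR of each gene in GENCODE M21 (GRCm38). It occurred in 1 of the 10 genes, Tead1, beside 14.1% of the 9315 genes with a mean of 10 or more whose 3′ UTR could be searched. The 3′ UTR of Tead1 is 8147 bases long, beside a median of 1225 bases over those genes. The site is shown in capitals within its surroundings.
Tead1, chr7:112903335-112903363, plus strand: ggctctgagtcAAATTTCtatttaccata
The complement of bases 2 to 7 alone, AATTTC, occurred in 3 of the 10 genes, Yap1, Tead1 and Crim1, beside 33.1% of the genes searched. Whether Tead1 or any other of the 10 genes responded to the siRNA was not analysed here.

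The exons of 4 of the 10 genes overlap an exon of another annotated gene on the opposite strand. The share of all genes with such an overlap was not computed, so this count is not a trait of the 10 genes. Crim1 shares 123 bases with Fez2, which had a mean of 176 normalized counts, and Tead2 shares 13 bases with Cd37, which had 0.391. Yap1 shares 116 bases and Ctgf 636 bases with noncoding transcripts (Gm20416 and Gm15270) for which no level was used. No source used here says whether reads were counted by strand or how reads in shared bases were treated. The effect of the overlaps on the means of these genes is therefore not known.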

How the data were processed

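RNA was read by 3′ mRNA sequencing in 27 samples, 3 for each of 9 groups of line and siRNA. Per the labels and methods, the authors used FastQC 0.11.7 for quality, STAR 2.6.1d for alignment to mm10, featureCounts (Subread 1.6.2) for counting and DESeq2 1.28.1 for the fit. The deposited signal used here is the authors' mean over libraries of counts divided by size factors. The other 5 columns of values (log2 fold change, standard error, Wald statistic, p-value, adjusted p) are the authors' own comparison of Tbx2 with control siRNA and were not used. No column holds a value per library, so the depth is unknown, the mean has no error of its own and no test was run. The 92 spike-in transcripts, 9.57% of the summed means, were left out of gene counts, and 27 names had been turned into dates.

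Levels, ranks and percentages were computed with Python 3.11.15, numpy 2.4.6 and pandas 2.3.3. Genes were matched to RefSeq (GRCm38.p6), Ctgf as Ccn2 and Cyr61 as Ccn1. Motif search was tested on simulated sequences. Every one of the 10 genes and Tbx2 is named, with the 3 highest and 3 lowest genes of each pathway list; markers are named as examples. The genes, lists and motifs were chosen with earlier results of these data known. Protein identity within families was planned and not run, since no protein table was used here.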

Additional observations from a re-analysis of the deposited data

How the results depend on the processing

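The count of 8 genes above the upper quartile was the same over all listed genes and in the tables of clones 2 and 9, whose means are identical, and was 2 when only genes with a mean of 10 or more were ranked, since that leaves out the low genes. In that ranking the percentage of genes below was 91.7 for Yap1, 58.8 for Wwtr1, 63.4 for Tead1, 62.5 for Tead2, 28.4 for Tead4 and 1.47 for Tead3. With spike-in transcripts in the total, Yap1 made up 0.0211% of the summed means. Divided by transcript length, the shares were 19.99% for Tead1, 56.9% for Tead2, 3.95% for Tead3 and 19.1% for Tead4 within the TEAD family, and 85.3% for Yap1 within its pair with Wwtr1. A floor of 50 left 1 VGLL gene. Counts of Hippo regulators and YAP targets stayed within 1.5 times at floors of 1 and 50. Of the 10 promoter windows, 8 held GGAATG, 4 held GGAATGT and 2 held GGAATG in the 100 bases before the start. With the seed of 6 bases, 3 genes had a site. No paired analysis was possible because the tables carry no values per sample, and no replicate could be left out for the same reason.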
